A study of Mus musculus with 10 samples.

Results

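Of the 30 genes listed for cholesterol synthesis, uptake and efflux, 27 had a row in the count tables of 23930 amplicons, found by an exact match of the gene symbol, and all 27 had enough reads to be tested. Acat2, Idi1 and Fdps had no row under these symbols and are not analysed here. By role, 5 of the 27 genes encode enzymes of the mevalonate pathway and 8 encode enzymes of the later sterol steps. A further 4 are called SREBP control genes. They are Srebf2, which encodes the sterol-regulated factor SREBP-2, and Scap, Insig1 and Insig2, which control it. The rest are 5 genes of uptake, transfer and storage, and 5 genes of efflux with its nuclear receptor LXR. All 27 were measured in epididymal white adipose tissue, a visceral fat depot, of 10 C57BL/6 mice. All animals were 18 weeks old and had eaten a diet high in sucrose and fat for 8 weeks. Of these, 5 were wild-type (Srgn+/+) and 5 had the genotype Srgn-/-, called Srgn-knockout here. Srgn encodes serglycin, a proteoglycan of immune-cell granules. Both groups shared strain, age, diet and depot; how the allele was made is not given in the sources used here.

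Cells make cholesterol from acetyl-CoA. The mevalonate pathway builds isoprene units and joins them to squalene, and the later enzymes close the rings and trim the product to cholesterol. When membranes run low in sterol, SCAP carries SREBP-2 from the endoplasmic reticulum to the Golgi for cleavage, and the released factor switches on most of these enzymes; the INSIG proteins hold SCAP back when sterol is plentiful. When sterol is in excess, LXR switches on ABCA1 and ABCG1, which hand cholesterol to lipoproteins, and MYLIP, a ubiquitin ligase that limits lipoprotein uptake. Fat cells hold much of the body's free cholesterol, mostly around the lipid droplet, while macrophages in obese fat take up lipid from dying fat cells and store cholesterol as ester.

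Promoter sequence is shown because 12 of the 13 synthesis enzymes were lowest in the same library, as described further on, and SREBP is known to act together with factors that bind the CCAAT box. RefSeq promoters of build GRCm38.p6, from 250 bases before to 50 bases after the annotated start, were at hand for 22 of the 27 genes; Fdft1, Sqle, Scarb1, Stard4 and Abcg1 had none in the table. A classic form of the sterol response element, TCACNCCAC, was searched on both strands and was found in 1 of the 22, Hmgcs1, and in 1.44% of 27025 genes with a promoter in the table. The CCAAT box was found in all 11 synthesis enzymes with a promoter. It was also found in 6 further members, Srebf2, Insig1, Insig2, Mylip, Soat1 and Nceh1. Of the 27025 genes 41.1% had it, a share not limited to genes with enough reads to be tested. Genes with several annotated starts, such as Dhcr7, have more sequence to match. In Hmgcs1, which held both, the matches did not overlap. The stretches below are read 5′ to 3′ on the strand of the gene, with the motif and its 12 flanking bases on each side. They show the sterol response element of Hmgcs1, and the last CCAAT box before the start for 6 genes whose slopes are described further on. Capitals mark the match; ATTGG is the CCAAT box on the opposite strand. A match is a description of letters, not a shown binding site, and its part in the levels was not tested.
Hmgcs1, sterol response element, chr13:119690202-119690234, plus strand: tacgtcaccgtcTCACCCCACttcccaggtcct
Mvd, CCAAT box, chr8:122443433-122443461, minus strand: ccggccagcgggCCAATcatatggcagcg
Lss, CCAAT box, chr10:76531531-76531559, plus strand: ggtgatgctctgATTGGccgagctcgcat
Ebp, CCAAT box, chrX:8193551-8193579, minus strand: atccctgtactgATTGGttcgtcagattc
Nsdhl, CCAAT box, chrX:72918489-72918517, plus strand: aagactagcctcATTGGgcaaaatcatgc
Dhcr7, CCAAT box, chr7:143830153-143830181, plus strand: aatccacttccgATTGGtcgtctgtgacc
Insig1, CCAAT box, chr5:28071184-28071212, plus strand: cgccctcctcccATTGGctccggcggcct

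Libraries held 7824764 to 10757779 reads each. Levels are given as CPM, reads scaled to a common library size with trimmed-mean factors; since amplicons differ in efficiency and carry no length, levels of different genes are not compared. Srgn had 776 to 1301 reads in the wild-type libraries and 0 to 12 in the Srgn-knockout libraries; where its amplicon lies relative to the mutation was not examined. Fat-cell markers (12 of 12 with a row) had sums of 34800 to 51300 CPM (wild-type) and 33900 to 41700 CPM (Srgn-knockout). Macrophage markers (14 of 15 with a row) summed to 1920 to 7490 and 2070 to 4240 CPM. Wild-type 1 stood apart, with the lowest macrophage sum, the highest fat-cell sum and the most amplicons with a read, 18638 against 16850 to 17897 elsewhere. Epididymis markers (16 of 18 with a row) summed to 586 CPM in wild-type 4, 4640 in Srgn-knockout 3 and 1030 in Srgn-knockout 5, and to at most 19.4 CPM elsewhere. Germ-cell markers summed to 513 CPM in wild-type 4, 160.5 CPM in wild-type 1 and 1.24 to 142 CPM elsewhere. Wild-type 1 also had the epididymis sum of 19.4 CPM and the highest sum of mesothelial markers, 525 CPM. Markers of steroid-making cells, which also handle much cholesterol, stayed between 7.03 and 25.4 CPM in sum. No gene of these marker lists was at 0 reads in all libraries.

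Most synthesis enzymes were lowest in 1 and the same animal. Of the 13 enzymes, 12 had their lowest level in wild-type 1, against 19.4% of the 12719 tested genes. In those 12, wild-type 1 held 28.6% to 72.6% of the mean of the other 9 libraries, with a median of 56%. The exception was Fdft1, squalene synthase, which joins farnesyl units to squalene. It was highest in wild-type 1, as were 16.9% of all tested genes, and stood there at 163% of the mean of the others. Srgn-knockout 2 was the second lowest library for 10 of the 13 enzymes, a rank whose share over all tested genes was not computed. It was the lowest library for 0 of the 13 and for 10% of all tested genes. Wild-type 1 and Srgn-knockout 2 also had the lowest macrophage marker sums, and their part in the synthesis levels was tested only as the slope described further on.

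**Figure D1:**
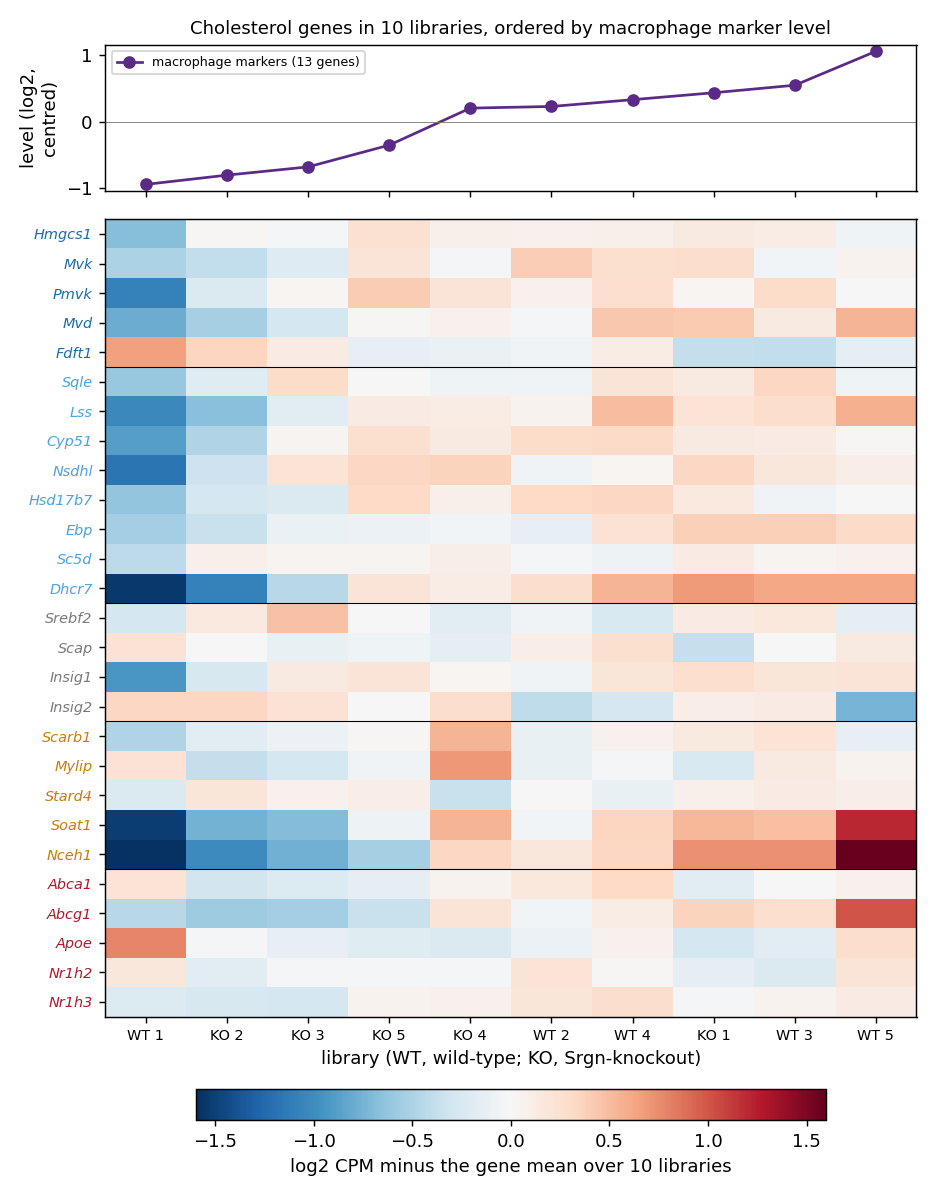
Levels of the 27 cholesterol genes in 10 libraries, ordered by macrophage marker level, as log2 CPM minus the mean of each gene (colour, saturated at 1.6 on either side), with the macrophage marker level plotted above. Wild-type 1, at the left, is lowest for 12 of 13 synthesis enzymes and highest for Fdft1, and Nceh1 and Soat1 follow the macrophage markers from left to right.

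No difference between Srgn-knockout and wild-type fat passed the threshold in any of the 27 genes. By the edgeR quasi-likelihood test, adjusted over all 12719 genes, 0 members rose and 0 fell, where 0.00786% of all tested genes (Srgn alone) were called. At an unadjusted p under 0.05 there were 3 members, all with lower values in Srgn-knockout (Scap, Abca1 and Apoe), against 12.8% of all tested genes in either direction and 6.06% with lower values; a share of 3 in 27 is near the former. With limma-voom and with the DESeq2 Wald test 0 members passed too, although DESeq2 called 1.74% of all genes. The groups did not overlap for 1 member, Scap, against 2.78% of all genes. Estimates ran from -0.66 for Nceh1 to 0.33 for Insig2, and the median over members was -0.07 on the log2 scale. The SE of a member had a median of 0.181 on the log2 scale, which sets the precision that 5 animals a group give.

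**Figure D2:**
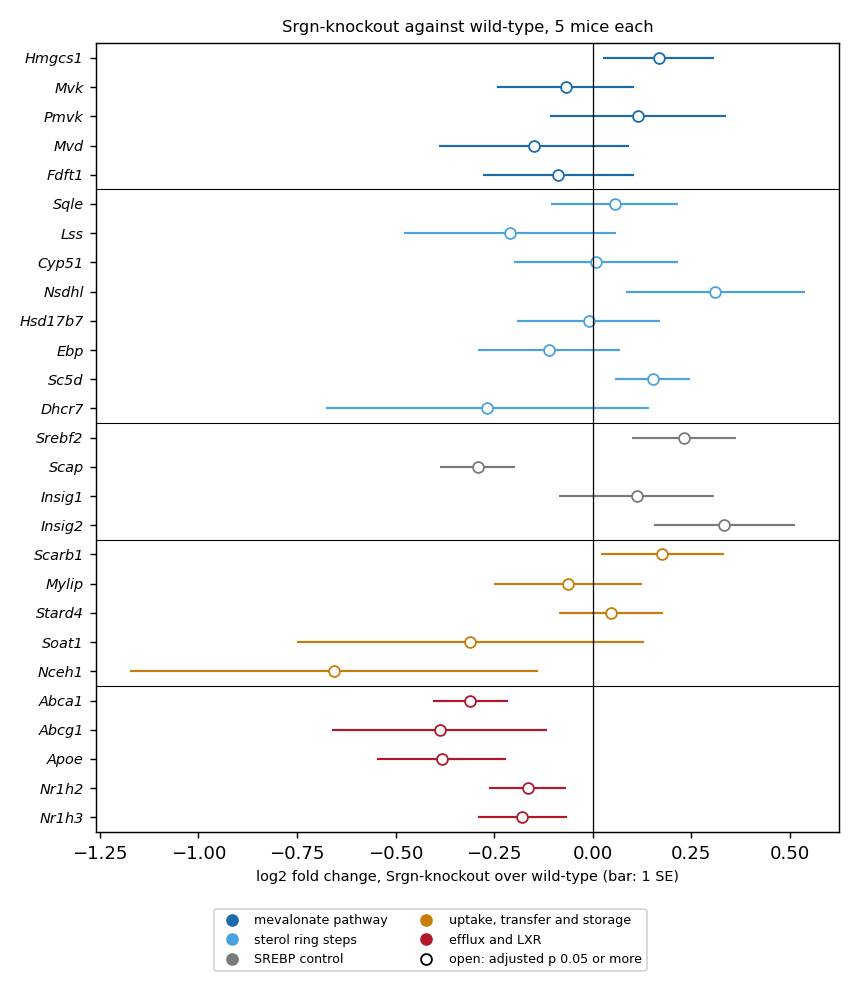
Log2 fold change of each gene, Srgn-knockout over wild-type, with 1 SE to each side (n = 5 mice a group), coloured by role; open points did not pass at an adjusted p of 0.05. All 27 points are open, the 5 efflux and LXR genes lie left of 0, and the widest bar is that of Nceh1.

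In the mevalonate pathway, 2 of 5 enzymes had higher and 3 had lower estimates in Srgn-knockout. Hmgcs1, which makes HMG-CoA in the cytosol, had 348, 583, 606, 588 and 530 CPM in wild-type 1 to 5 and 615, 564, 551, 590 and 661 CPM in Srgn-knockout 1 to 5. Wild-type 1 was far below the other 9 libraries, which overlapped between the groups. Means were 531 ± 106 CPM (wild-type) and 596 ± 43.9 CPM (Srgn-knockout) (SD, n = 5; log2 0.17, SE 0.141, edgeR adjusted p = 0.638), and the estimate was 0.05 without wild-type 1. Mvd, the decarboxylase that yields isopentenyl pyrophosphate, had 13.8, 23.4, 26.5, 32.3 and 34.9 CPM in wild-type 1 to 5 and 32, 16.6, 19.6, 25.1 and 24.3 CPM in Srgn-knockout 1 to 5. Its groups overlapped over most of their range, and its estimate was log2 -0.15, SE 0.241, edgeR adjusted p = 0.825. Pmvk, phosphomevalonate kinase, had 35.4, 78.4, 92, 90.5 and 74.8 CPM in wild-type 1 to 5 and 76.6, 63.7, 76.7, 86 and 98.8 CPM in Srgn-knockout 1 to 5. Apart from the low value of wild-type 1 its libraries mixed between the genotypes (log2 0.11, SE 0.223, edgeR adjusted p = 0.857), and without wild-type 1 the estimate was -0.06. Mvk, mevalonate kinase, and Fdft1 had estimates of -0.07 and -0.09, and of 0.09 and -0.29 with the macrophage level in the model.

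Among the enzymes of the later sterol steps, 4 of 8 had higher and 4 had lower estimates, of which Cyp51 changed sign with no filter and Hsd17b7 with upper-quartile factors and limma-voom. With the macrophage level in the model all 8 had estimates above 0, with a median of 0.22, and 0 passed. Of all 12719 tested genes, 6722 had estimates above 0 in that fit, with a median of 0.02. All 8 also had slopes above 0 on that level, and the level tended to be lower in Srgn-knockout (r = -0.386 with genotype). The added term therefore moves such estimates upward. In that fit Dhcr7 was 0.34, Ebp 0.13 and Hsd17b7 0.16. Sc5d, which adds a double bond to the second ring, was the steadiest of the 8 over the libraries. It had 174, 229, 239, 220 and 243 CPM in wild-type 1 to 5 and 254, 245, 240, 247 and 240 CPM in Srgn-knockout 1 to 5. Srgn-knockout libraries lay in a narrow band that only wild-type 5 reached (log2 0.15, SE 0.0959, edgeR adjusted p = 0.527). Nsdhl, which removes methyl groups from the ring, had 63.2, 136, 161, 145 and 153 CPM in wild-type 1 to 5 and 178, 113, 165, 181 and 179 CPM in Srgn-knockout 1 to 5. Srgn-knockout 2 lay below 4 of the 5 wild-type libraries, and 4 Srgn-knockout libraries lay above all wild-type ones (log2 0.31, SE 0.227, edgeR adjusted p = 0.586). Without wild-type 1 the estimate was 0.13. Lss, which closes the 4 rings, had 30.1, 63.5, 74.5, 86.7 and 90.6 CPM in wild-type 1 to 5 and 71.2, 38.7, 54.6, 66.6 and 67 CPM in Srgn-knockout 1 to 5. Wild-type 1 and Srgn-knockout 2 were the lowest, and the groups overlapped (log2 -0.21, SE 0.269, edgeR adjusted p = 0.77). The other 5 had estimates between -0.27 and 0.06. They are Sqle (squalene epoxidase), Cyp51 (lanosterol demethylase), Hsd17b7, Ebp (sterol isomerase) and Dhcr7, which performs a late reduction on the way to cholesterol.

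Of the SREBP control genes, Scap had the smallest p. This escort protein of SREBP had 40.5, 37, 34.4, 41.2 and 38.2 CPM in wild-type 1 to 5 and 26.7, 34.2, 31.7, 30.9 and 32.8 CPM in Srgn-knockout 1 to 5. The groups did not overlap: the lowest wild-type library, number 3, was just above the highest Srgn-knockout library, number 2. Means were 38.3 ± 2.74 CPM (wild-type) and 31.2 ± 2.85 CPM (Srgn-knockout) (SD, n = 5; log2 -0.29, SE 0.0949, edgeR adjusted p = 0.258), which did not pass. Insig2, which holds SCAP in the endoplasmic reticulum, had 28.5, 17.1, 24.9, 18.9 and 13.5 CPM in wild-type 1 to 5 and 24.5, 28.5, 26.7, 27.6 and 22.8 CPM in Srgn-knockout 1 to 5. Wild-type 5 was lowest and the groups overlapped (log2 0.33, SE 0.179, edgeR adjusted p = 0.452). Srebf2, the gene of SREBP-2, had 23.2, 27.3, 31.7, 23.9 and 25.5 CPM in wild-type 1 to 5 and 30.9, 31.4, 39.1, 25.1 and 28.2 CPM in Srgn-knockout 1 to 5. Srgn-knockout 3 was highest, and the other libraries mixed (log2 0.23, SE 0.132, edgeR adjusted p = 0.483). Insig1, itself a target of SREBP, had an estimate of 0.11.

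Of the genes of uptake, transfer and storage, 2 had higher and 3 had lower estimates. Nceh1, which frees cholesterol from stored ester, had 15, 50.6, 74.3, 56.3 and 136 CPM in wild-type 1 to 5 and 74.2, 22.2, 26.2, 56.4 and 30.9 CPM in Srgn-knockout 1 to 5. The wild-type range held the whole Srgn-knockout range, with wild-type 5 far above the rest and wild-type 1 lowest. Means were 66.4 ± 44.4 CPM (wild-type) and 42 ± 22.4 CPM (Srgn-knockout) (SD, n = 5; log2 -0.66, SE 0.517, edgeR adjusted p = 0.616), and the estimate was -0.22 without wild-type 5. Soat1, which esterifies cholesterol for storage, had 12.4, 34.4, 49.7, 45.3 and 81.7 CPM in wild-type 1 to 5 and 51.2, 21, 21.9, 51.8 and 33.7 CPM in Srgn-knockout 1 to 5. Wild-type 5 was the highest and wild-type 1 the lowest (log2 -0.31, SE 0.44, edgeR adjusted p = 0.797), and without wild-type 5 the estimate was 0.02. Scarb1, the HDL receptor SR-BI, had 103, 132, 167, 151 and 131 CPM in wild-type 1 to 5 and 160, 126, 134, 209 and 145 CPM in Srgn-knockout 1 to 5. Srgn-knockout 4 was the highest library and the others overlapped (log2 0.18, SE 0.156, edgeR adjusted p = 0.656). Mylip and Stard4, a carrier of sterol between membranes, had estimates of -0.06 and 0.05.

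The 5 efflux and LXR genes all had lower estimates in Srgn-knockout, with a median of -0.31 on the log2 scale against 0.00 for all tested genes, of which 49.7% had an estimate above 0, and 0 of 5 passed. Of 11 other genes of efflux and LXR that are not members, 6 had estimates above 0, with a median of 0.13. Abca1, the transporter that loads cholesterol onto lipid-poor apolipoprotein A-I, had 513, 495, 440, 547 and 460 CPM in wild-type 1 to 5 and 388, 360, 378, 456 and 399 CPM in Srgn-knockout 1 to 5. Only Srgn-knockout 4 reached into the wild-type range, above wild-type 3. Means were 491 ± 42.4 CPM (wild-type) and 396 ± 36.5 CPM (Srgn-knockout) (SD, n = 5; log2 -0.31, SE 0.0958, edgeR adjusted p = 0.247). Over 17 alternative fits its estimate stayed between -0.37 and -0.25, and the adjusted p between 0.0503 and 0.999. Apoe, the apolipoprotein that macrophages and fat cells secrete, had 726, 394, 372, 441 and 511 CPM in wild-type 1 to 5 and 348, 412, 385, 359 and 369 CPM in Srgn-knockout 1 to 5. Wild-type 1 stood far above all others; wild-type 4 and 5 also lay above every Srgn-knockout library, while wild-type 2 and 3 lay among them (log2 -0.38, SE 0.164, edgeR adjusted p = 0.364). Without wild-type 1 the estimate was -0.20. Nr1h2, which encodes LXR beta, had 105, 108, 78.9, 93.9 and 107 CPM in wild-type 1 to 5 and 83.8, 82.6, 90.7, 90.6 and 91.8 CPM in Srgn-knockout 1 to 5. Wild-type 3 was the lowest library and the groups overlapped (log2 -0.17, SE 0.0967, edgeR adjusted p = 0.5). Abcg1 and Nr1h3, which encodes LXR alpha, had estimates of -0.39 and -0.18. Macrophage marker sums reached higher in wild-type, as given above, though 0 of 13 tested markers differed by genotype at the threshold. With their level in the model, an alternative fit, Abcg1 had an estimate of -0.03, Abca1 -0.31 and Apoe -0.50 (edgeR adjusted p = 0.921, 0.12 and 0.0809). No member passed in that fit, in which 0.401% of all genes did.

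The second question was how the genes follow macrophages over the 10 libraries. The macrophage marker level of a library is the mean of centred log2 CPM over 13 tested markers, none of them a member, and a slope is the log2 change of a gene per log2 unit of that level, with genotype in the model. In bulk tissue, fewer cells of a type and less RNA per cell cannot be told apart. Slopes over the 10 libraries were positive and past the threshold for 10 members, against 13.4% of all tested genes, and negative for 1 member, against 9.1%. Of all genes called, 59.5% were higher, and 45.9% with upper-quartile factors, under which 3 members were lower. Estimates were above 0 for 20 of 27 members, against 49% of all genes. Fat-cell and mesothelial marker sums ran the other way (r = -0.66 and -0.75 with the macrophage level over 10 libraries, as a description), and their part in the slopes was not tested. Wild-type 1 lies at the low end of the axis. Without it, 5 members were higher, against 5.04% of all genes, and 0 lower, against 1.75%, and 870 genes were called in place of 2857. Those 5 were Nceh1, Soat1, Abcg1, Mvd and Dhcr7.

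**Figure D3:**
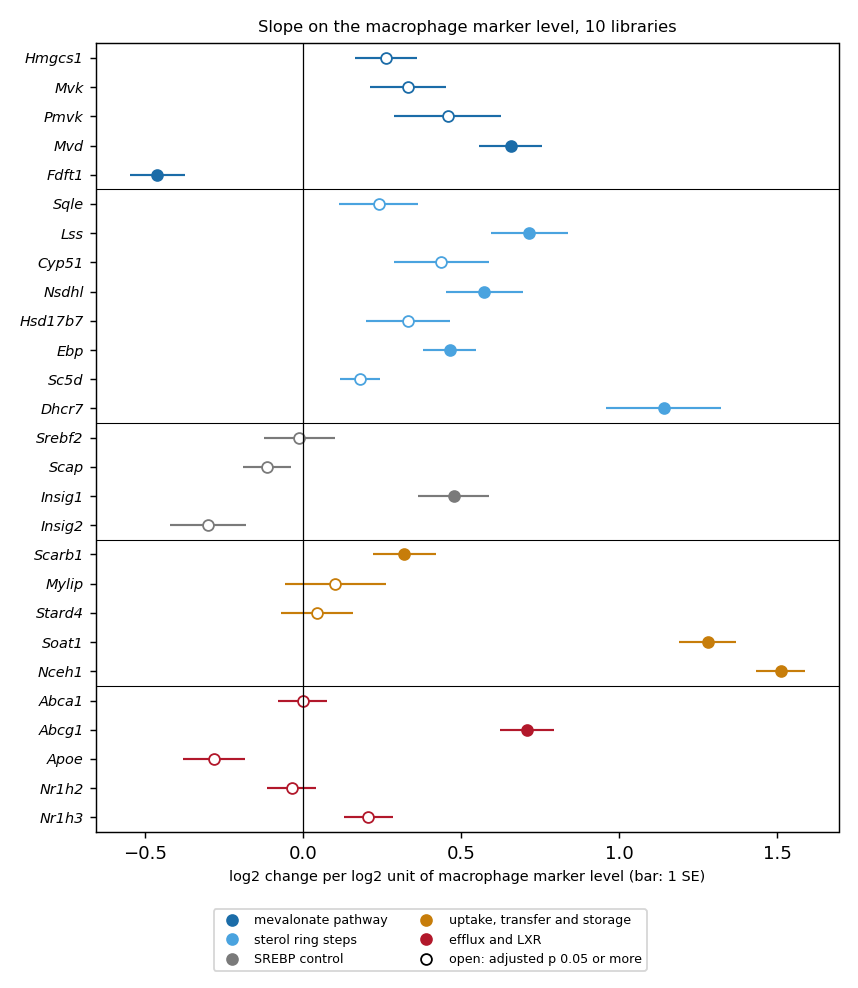
Slope of each gene on the macrophage marker level over 10 libraries, with 1 SE to each side; filled points passed at an adjusted p of 0.05. Nceh1 and Soat1 have the steepest slopes, Abcg1 lies far to the right of the other efflux genes, and Fdft1 is the one filled point left of 0.

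Of the 5 genes of uptake, transfer and storage, 3 rose with the macrophage level and 0 fell. Nceh1 rose from 15 CPM in wild-type 1, the library with the lowest marker level, to 136 CPM in wild-type 5, the one with the highest (slope 1.51, SE 0.0763, edgeR adjusted p = 2.09e-08). Soat1 rose from 12.4 to 81.7 CPM between the same libraries (slope 1.28, SE 0.0902, edgeR adjusted p = 2.38e-07). Slopes within the genotypes, fitted after seeing the data, were 1.58 in wild-type and 1.37 in Srgn-knockout for Nceh1, and 1.36 and 1.14 for Soat1. All 4 values are positive, so the hydrolase and the esterifying enzyme had slopes of the same sign in both groups. Scarb1 rose less (slope 0.32, SE 0.0986, edgeR adjusted p = 0.0303). Its slope stayed between 0.22 and 0.42 over 17 alternatives and passed in 9 of them; without wild-type 1 it was 0.30 (adjusted p = 0.25). Mylip and Stard4 had slopes of 0.10 and 0.04 and did not pass.

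Of the 5 efflux and LXR genes, 1 rose with the macrophage level, Abcg1. Abcg1, which exports cholesterol to mature HDL, had 44.1, 58.4, 72, 65.3 and 120 CPM in wild-type 1 to 5 and 76.8, 40.4, 41.2, 68.9 and 46.8 CPM in Srgn-knockout 1 to 5. Wild-type 5 was the highest, and the 3 lowest libraries were Srgn-knockout 2, Srgn-knockout 3 and wild-type 1 (slope 0.71, SE 0.0865, edgeR adjusted p = 4.39e-05). Its slope was 0.91 without wild-type 1. Abca1 had a slope of 0.00 (SE 0.077, edgeR adjusted p = 0.995), between -0.06 and 0.08 over the alternatives, and its highest level was 1.52 times its lowest. The log2 ratio of Abcg1 to Abca1 went from -3.54 in wild-type 1 to -1.94 in wild-type 5. This pair was chosen after its values were seen, so the ratio is given with no test. Apoe had a slope of -0.28 (SE 0.0977, edgeR adjusted p = 0.0532), which was -0.01 without wild-type 1, and which passed without wild-type 2, without wild-type 5 and with upper-quartile factors (adjusted p = 0.0461, 0.00388 and 0.0233). Nr1h3 and Nr1h2 had slopes of 0.21 and -0.04 and did not pass.

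**Figure D4:**
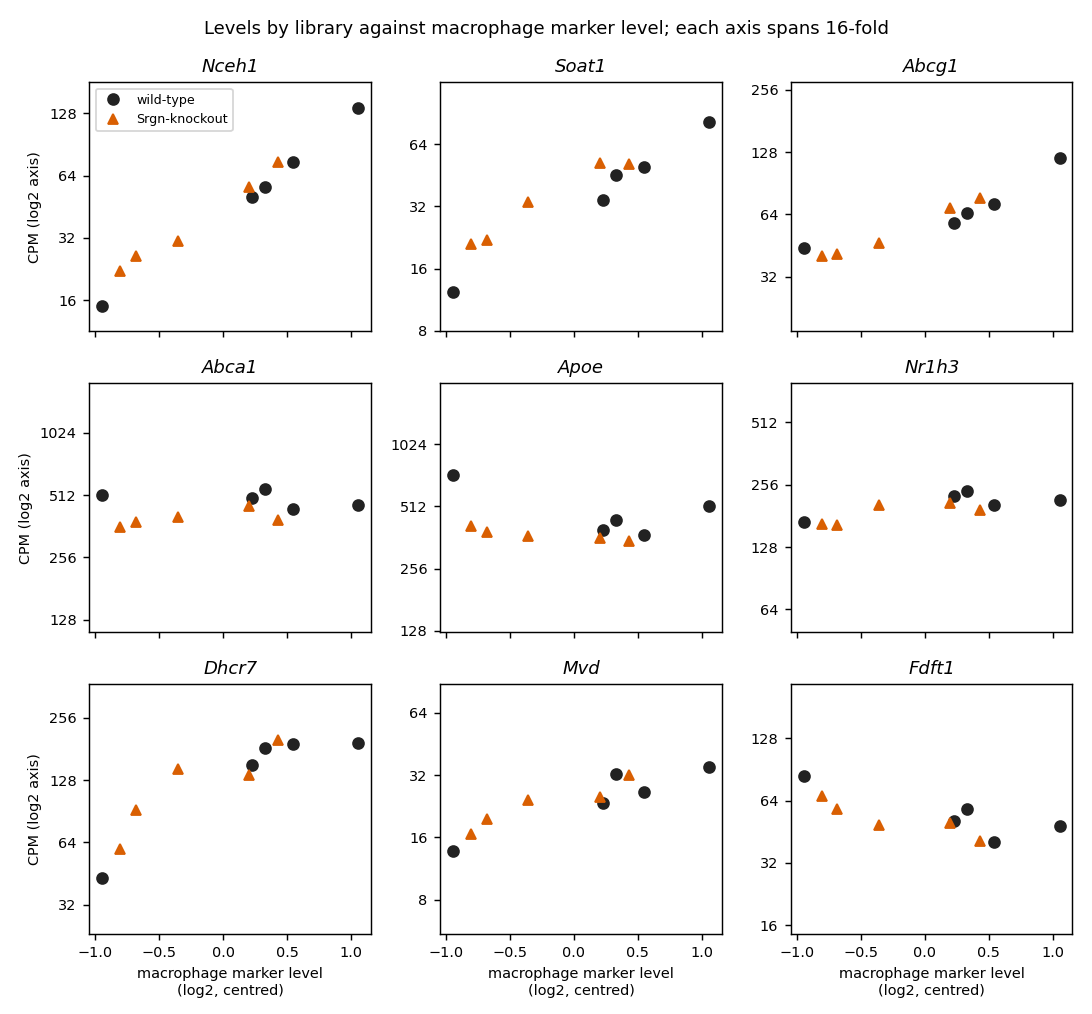
CPM of 9 genes (log2 axes, each spanning the same range of 16-fold) against the macrophage marker level of the library, with 5 wild-type and 5 Srgn-knockout mice. Nceh1 and Soat1 climb steadily, Abcg1 climbs while Abca1 stays level, Dhcr7 climbs and then flattens, and Fdft1 descends.

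Among the 13 synthesis enzymes, 5 rose and 1 fell with the macrophage level, against 13.4% and 9.1% of all tested genes. A slope above 0 was found for 12, against 49% of all genes, with a median of 0.44. Values in every library are added for Dhcr7, Ebp, Fdft1, Sqle and Insig1, chosen after they were seen. Dhcr7 had 43, 152, 192, 182 and 193 CPM in wild-type 1 to 5 and 200, 59.4, 91.8, 136 and 145 CPM in Srgn-knockout 1 to 5. Its 3 lowest libraries, wild-type 1 and Srgn-knockout 2 and 3, are also the 3 with the lowest macrophage level (slope 1.14, SE 0.183, edgeR adjusted p = 0.00151). Lss (slope 0.71, SE 0.122, edgeR adjusted p = 0.000852), Mvd (slope 0.66, SE 0.0998, edgeR adjusted p = 0.000286), Nsdhl (slope 0.57, SE 0.122, edgeR adjusted p = 0.00474) and Ebp (slope 0.46, SE 0.0836, edgeR adjusted p = 0.00112) rose too. Without wild-type 1, 2 enzymes, Mvd and Dhcr7, passed as higher and 0 as lower. The slope was then 0.49 for Lss, 0.30 for Nsdhl and 0.42 for Ebp (edgeR adjusted p = 0.0615, 0.197 and 0.0537), and Nsdhl did not pass with no genotype term either (slope 0.32, adjusted p = 0.238). Ebp had 86.5, 115, 164, 148 and 156 CPM in wild-type 1 to 5 and 165, 98.3, 117, 122 and 118 CPM in Srgn-knockout 1 to 5, with wild-type 1 and Srgn-knockout 2 lowest. Hmgcs1, Sqle, Pmvk, Cyp51, Hsd17b7 and Sc5d had slopes between 0.18 and 0.46 that did not pass. Without wild-type 1 they lay between -0.02 and 0.13, so that much of their size depended on that library. Within Srgn-knockout the slopes of Cyp51 and Hsd17b7 were both 0.30 (SE 0.243 and 0.222). Those of Hmgcs1, Sqle, Pmvk and Sc5d lay between 0.02 and 0.14 there. Mvk had a slope of 0.33 over all libraries, and 0.19 without wild-type 1.

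Fdft1 went against its neighbours in the pathway. It had 83.7, 50.7, 40.5, 58 and 48 CPM in wild-type 1 to 5 and 40.8, 67.6, 58.2, 49.6 and 48.6 CPM in Srgn-knockout 1 to 5. Wild-type 1 and Srgn-knockout 2 were highest and wild-type 3 and Srgn-knockout 1 lowest (slope -0.46, SE 0.0859, edgeR adjusted p = 0.00149). Its slope was -0.46 in each genotype, and -0.40 without wild-type 1, where it did not pass (adjusted p = 0.0958). Squalene epoxidase, Sqle, uses what Fdft1 makes, and had 24.2, 35.4, 46.3, 42.3 and 35 CPM in wild-type 1 to 5 and 40.6, 32.2, 45.2, 35.2 and 37.1 CPM in Srgn-knockout 1 to 5. Wild-type 1 was lowest for Sqle and highest for Fdft1.

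Of the SREBP control genes 1 rose with the macrophage level, Insig1, a direct target of SREBP. It had 267, 492, 585, 584 and 589 CPM in wild-type 1 to 5 and 618, 427, 562, 524 and 589 CPM in Srgn-knockout 1 to 5, with wild-type 1 lowest (slope 0.48, SE 0.111, edgeR adjusted p = 0.00718). Without wild-type 1 its slope was 0.21 (adjusted p = 0.334). Insig2 had a slope of -0.30 that did not pass, and Srebf2 and Scap had slopes of -0.01 and -0.11. For 23 of the 27 members, all 13 synthesis enzymes among them, the slope had the same sign in both genotypes, against 71.3% of all genes. The sign does not give the size. In Srgn-knockout the slopes of the synthesis enzymes ran from -0.46 for Fdft1 to 1.07 for Dhcr7. Some lay near 0, such as 0.02 for Sqle (SE 0.19) and 0.05 for Sc5d (SE 0.0999). The test of the difference between the slopes of the genotypes called 0 members and 0% of all genes by edgeR (unadjusted p under 0.05 for 0 members and for 6.17% of all genes).

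Other genes of the pathway, from a list of 37 tested genes that are not members, showed the same lack of calls between the genotypes, with 0 higher and 0 lower of 37. Scp2, a sterol carrier of peroxisomes, had 98.7, 85.2, 99.9, 85.6 and 94.2 CPM in wild-type 1 to 5 and 104, 121, 116, 111 and 106 CPM in Srgn-knockout 1 to 5. The lowest Srgn-knockout library was above the highest wild-type one, and groups did not overlap for 2.78% of all tested genes. The difference in Scp2 did not pass (log2 0.27, SE 0.0815, edgeR adjusted p = 0.247). Lrp1, an endocytic receptor for lipoprotein remnants (log2 -0.47, SE 0.176, edgeR adjusted p = 0.309), and Cd36, a scavenger receptor and fatty acid transporter (log2 0.30, SE 0.112, edgeR adjusted p = 0.309), did not pass either. In the other lists the estimates of smallest p were those of Msmo1 (0.24), Tm7sf2 (0.25) and Ggps1 (0.07) in synthesis, Erlin1 (-0.21), Rnf145 (0.15) and Mbtps1 (-0.15) in SREBP control, and Abcg4 (0.77), Abca7 (-0.23) and Apoc1 (0.19) in efflux. Their adjusted p in edgeR lay between 0.482 and 0.782.

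With the macrophage level, 9 of these 37 genes rose and 2 fell, against 13.4% and 9.1% of all tested genes. Of the 9, 6 came from the list of uptake, transfer and storage. Lipa, the lysosomal acid lipase that frees cholesterol from incoming lipoproteins, had 27.7, 78.9, 119, 87.4 and 188 CPM in wild-type 1 to 5 and 143, 62.5, 71.1, 123 and 80.8 CPM in Srgn-knockout 1 to 5, lowest in wild-type 1 and highest in wild-type 5, and rose with the marker level (slope 1.23, SE 0.0854, edgeR adjusted p = 2.16e-07). The lysosomal sterol exporters Npc1 and Npc2 rose with slopes of 0.36 and 0.49, the endosomal sterol protein Stard3 with 0.71, Lrp1 with 0.44 and the phospholipid transfer protein Pltp with 0.96. Stard5, Lpcat3 and Erlin2 rose with slopes of 0.38 to 0.42. Cyp27a1, sterol 27-hydroxylase, and Abcg4 fell with slopes of -0.77 and -0.94. All of the 9 rising genes except Lrp1 were lowest in wild-type 1, where 19.4% of all tested genes were lowest. That library has the lowest macrophage level. As these genes were picked by a rising slope on that level, their rank largely follows from the choice and is no further support. Cyp27a1 was highest in wild-type 1, and Abcg4 in Srgn-knockout 2. Slopes of these genes without wild-type 1 are not given here. Lipa was also the 1 gene among the 37 that passed between the genotypes once the macrophage level was in the model. Its level was higher in Srgn-knockout (log2 0.70, edgeR adjusted p = 0.013). The fit called 0.401% of all tested genes, and 0.134% as higher. It takes 1 slope for both genotypes. The slope of Lipa was 1.39 in wild-type and 0.95 in Srgn-knockout (edgeR p of the difference 0.00537 unadjusted, 0.61 adjusted). The part of this in the call was not tested. Without the macrophage level in the model the estimate of Lipa was -0.05 (adjusted p = 0.97). Lipa was chosen after its values were seen.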

How the data were processed

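Total RNA of 10 samples was amplified with the Ion AmpliSeq mouse transcriptome kit and read on an Ion S5 XL, per the labels' protocols. Build mm9 comes from the submitters' processing notes; the aligner is not given in the sources used here. As tables, the authors deposited a table of read counts without normalization and a table of RPM values (reads over the library total), which equal the counts scaled by column totals within 0.000591. The labels give 5 samples a group and name no animals; they are taken as 1 mouse each, and p-values measure the spread between samples.

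The counts were analysed in R 4.3.3. edgeR 4.0.16 kept 12719 of 23930 amplicons (filterByExpr, minimum count 10, minimum total 15), scaled by trimmed mean of M-values, and compared groups by its two-sided quasi-likelihood test (robust dispersions; Benjamini-Hochberg over all tested genes, threshold 0.05). Slopes on a marker level (log2 CPM, prior count 2) used the same test with genotype in the model. Alternatives were RLE and upper-quartile factors, no filter, limma-voom (3.58.1), DESeq2 (1.42.0), other covariates and lists, and libraries left out. Scripts were tested on simulated data. Named genes are up to 3 members of smallest genotype p per role and up to 4 with a called slope, with values in every library, and up to 3 other pathway genes per list; further ones are marked as chosen later. Some planned results, with the genes they need, are not reported here, and counts over other pathway genes leave those genes out. Members, lists, tests and the libraries left out together were chosen with earlier results of these data known.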

Additional observations from a re-analysis of the deposited data

Results flagged for a closer look

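In each group of 5 libraries the gap of the most extreme library to its neighbour was set against the range of the group (Dixon's critical value for 5 samples, 0.71). Of 54 groups (27 genes in 2 genotypes) 5 stood out, where chance flags about 1 in 20. Nsdhl was 63.2 CPM in wild-type 1, against 136 to 161 CPM among the remaining wild-type animals. It was 113 CPM in Srgn-knockout 2, against 165 to 181 CPM in the rest of that group. Dhcr7 was 43 CPM in wild-type 1, against 152 to 193 CPM. Both libraries are those with the lowest macrophage marker levels, and the part of this in the values was not tested for single libraries. Srgn-knockout 4 stood out for a pair of genes of sterol uptake and transfer. Mylip was 86.6 CPM there, against 41 to 51.3 CPM in the rest of its group, and Stard4 was 12.1 CPM, against 16.2 to 17.7 CPM.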

How the results depend on the processing

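The 27 named genes counted here are members and other pathway genes of smallest genotype p, not the 27 members. Of 459 repeats of their genotype estimates, 451 kept direction and call. In the other 8 the sign changed without a call: with the macrophage level in the model Mvd was 0.19, Lss 0.20, Nceh1 0.22, Soat1 0.43 and Ggps1 -0.01; Pmvk was -0.06 without wild-type 1, Soat1 ran from -0.55 to 0.02 without single libraries (0.02 without wild-type 5), and Mvd 0.00 without wild-type 4 and Srgn-knockout 3 and 5. Among the members outside this count, only Abcg1 and Nr1h3 kept their sign in all alternatives. Dhcr7 ran from -0.51 to 0.34, Fdft1 from -0.29 to 0.10 and Insig1 from -0.05 to 0.39. No alternative called a member between the genotypes. Without single libraries other uncalled estimates moved too, among them Mvd (-0.31 to -0.02), Lss (-0.40 to -0.09), Scarb1 (0.04 to 0.26, lowest without Srgn-knockout 4), Sc5d (0.08 without wild-type 1), Insig2 (0.21 without wild-type 5) and Srebf2 (0.14 without Srgn-knockout 3). Of 228 repeats of the macrophage slopes of the 11 called members and Apoe, 202 kept direction and call, 23 lost the call and 3, all of Apoe, gained it, with no change of sign. Over all genes the genotype test called 1, 3 with no filter, 221 with DESeq2, 51 with the macrophage level in the model, and 1 to 2 without single libraries. Members whose macrophage slope was called higher numbered 10, and 5 to 15 without single libraries (5 without wild-type 1); those called lower numbered 1, 0 to 2 without single libraries, and 3 with upper-quartile factors (Fdft1, Apoe and Insig2, against 12.5% of all genes). Genes called numbered 2857, and 870 to 2915 without single libraries. Of all calls 59.5% were higher, and 45.9% with upper-quartile factors. Where no value above shows it, the cause was not tested. No paired analysis was possible because the labels give the groups no shared replicate numbers. Every member had at least 12.1 CPM in every library; counting error was not set against the spread between animals.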
